A study of Xenopus laevis with 12 samples.

Results

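In explanted foregut endoderm of the African clawed frog, Xenopus laevis, 5 of 44478 measured gene IDs were very low in vehicle and higher at every dose of retinoic acid (RA). They were chosen by their group means in CPM (the count scaled to a fixed library total): under 0.5 CPM in DMSO and at least 2 CPM in each RA group. The explants came from wild-type embryos (stock NXR_0031) and were cultured at 15 °C for about 16 hours, between Nieuwkoop-Faber stages 15 and 25. The 12 libraries, each from a pool of 8 explants, formed 4 groups of 3: 0.1% DMSO, 25 nM RA, 200 nM RA and 500 nM RA. Whether the 3 pools of each group came from different clutches is not in the labels, so a p-value here reflects only how much these pools varied. What vehicle the RA groups received is not stated either.

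Retinoic acid is a derivative of vitamin A that enters cells and binds nuclear receptors of the RAR family, which sit on DNA with RXR partners. Binding of the ligand exchanges co-repressors for co-activators, so that some target genes are nearly off without RA and are transcribed once it is present. In vertebrate embryos RA helps to set front-to-back position, and in the foregut it takes part in laying out the regions from which organs such as lung and pancreas arise. Genes of the Hox clusters and enzymes that break down RA are textbook targets of the pathway.

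None of the 5 IDs can be assigned to such a gene here. The files do not pair IDs with names, and 0 of the 44478 IDs matched an identifier in RefSeq for assembly Xenopus_laevis_v10.1, so the members have no role, position or sequence in this account. For the same reason the foregut identity of the tissue was not checked against marker genes. The members are numbered 1 to 5 from the highest to the lowest mean CPM at 500 nM RA. Members 1 and 3, the IDs XBXL10_1g39064 and XBXL10_1g28965, are given by ID because they met the rule for named genes, a called difference between 500 and 25 nM RA with no overlap of the 3 and 3 values.

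Total counts were 17782601 to 39147729 per library. On the first principal component of overall expression, 500 nM replicate 2 lay apart from 500 nM replicates 1 and 3. On the same component 200 nM replicate 3 lay apart from 200 nM replicates 1 and 2. Values without these 2 libraries are given below where a call or a fold change depended on them. Pairwise comparison of counts set another 200 nM library apart, replicate 1. Its reduced chi-square was 88.3 against replicate 2 and 88.3 against replicate 3, while replicates 2 and 3 differed by 3.16. At 25 nM the value was 15.1 for replicates 1 and 2, 50.7 for replicates 1 and 3 and 13.5 for replicates 2 and 3. At 500 nM, replicate 2 stood at 28.6 against replicate 1 and 26.3 against replicate 3, while replicates 1 and 3 differed by 2.90. None of the 5 members had counts identical to those of another ID in all libraries.

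All 5 members were at similarly low levels in vehicle, yet none of them was without counts there. Every member had expected counts in every DMSO library, between 2 and 12 each, and 0 of the 5 had a count of 0 in any. Whether reads shared with similar IDs contribute to these few counts was not tested. A count of 0 would allow up to 3 counts, which is 0.122 to 0.169 CPM in the DMSO libraries and under every member's group mean. In DMSO replicate 2 alone, member 2 (2 counts) was under this floor and member 1 (3 counts) was at it. Member 1 had 3 to 10 counts per DMSO library, and member 2 had 2 to 12. Members 3 and 5 had 5 to 6 and 6 to 7 counts, and member 4 had 4 to 11. Summed over the group, member 1 was at 0.332 CPM with a 95% exact Poisson interval of 0.206 to 0.508 CPM, which covers counting error only. Member 3, the lowest, was at 0.269 CPM (0.157 to 0.430 CPM). These intervals overlap, so the counts do not order the members by their vehicle level. They are described below as low in vehicle and present at every dose.

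No ID without any counts in vehicle reached such levels at all 3 RA doses. Of 11717 IDs with 0 counts in all 3 DMSO libraries, 24 had a count in all 9 RA libraries. The highest of these 11717 by its lowest RA group mean stood at 0.564, 0.471 and 0.633 CPM at 25, 200 and 500 nM RA. Of 21893 IDs under 0.5 CPM in DMSO, 28 reached 2 CPM at some dose. They were 12 at 25 nM, 12 at 200 nM and 22 at 500 nM, and 15 of the 28 did so at 1 dose only, 8 at 2 doses and 5 at all 3.

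Under RA the members lay between percentiles 46.5 and 59.0 of the IDs above 0 CPM, against 24.9 to 28.9 in DMSO. The limits of the rule bound these percentiles on both sides, so the contrast is a description only. Member 1, XBXL10_1g39064, had 0.382, 0.169 and 0.408 CPM in DMSO replicates 1 to 3, then 3.76, 3.66 and 3.28 CPM at 25 nM, 4.11, 5.01 and 4.47 CPM at 200 nM, and 4.67, 6.24 and 4.01 CPM at 500 nM RA. No RA library came near the DMSO libraries, and the highest value was that of 500 nM replicate 2. Its group means were 0.319 ± 0.131, 3.57 ± 0.25, 4.53 ± 0.452 and 4.98 ± 1.15 CPM (SD, n = 3 each).

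Member 2 had 0.477, 0.112 and 0.490 CPM in DMSO, 3.90, 3.45 and 3.66 CPM at 25 nM, 3.11, 2.85 and 4.51 CPM at 200 nM, and 4.90, 5.09 and 4.44 CPM at 500 nM RA. It was the member whose 200 nM mean, 3.49 ± 0.896 CPM, lay under its 25 nM mean, 3.67 ± 0.222 CPM (SD, n = 3 each). At 200 nM, replicate 3 stood above the other two.

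Member 3, XBXL10_1g28965, had 0.286, 0.281 and 0.245 CPM in DMSO, 2.83, 1.75 and 2.26 CPM at 25 nM, 3.71, 3.36 and 3.33 CPM at 200 nM, and 3.24, 4.16 and 4.18 CPM at 500 nM RA. Its 25 nM values all lay under those of the higher doses, and its values at 200 and 500 nM overlapped. Replicate 2 at 25 nM, with 42 counts, was the lowest RA library of this member.

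Member 4 had 0.525, 0.506 and 0.163 CPM in DMSO, 3.11, 2.21 and 3.17 CPM at 25 nM, 2.78, 4.37 and 4.20 CPM at 200 nM, and 3.30, 3.28 and 4.14 CPM at 500 nM RA. Replicates 1 and 2 in DMSO were themselves over the ceiling of 0.5 CPM, and the group mean passed under it through replicate 3, with 4 counts. Without DMSO replicate 3 this ID was no longer a member.

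Member 5 had 0.334, 0.337 and 0.286 CPM in DMSO, 1.54, 2.50 and 2.0 CPM at 25 nM, 2.71, 1.70 and 2.85 CPM at 200 nM, and 2.02, 3.10 and 2.24 CPM at 500 nM RA. It was the lowest member at each RA dose, and its values overlapped between all 3 doses. It passed the floor at 25 nM with a mean of 2.01 CPM, and without 25 nM replicate 2 it was no longer a member.

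**Figure D1:**
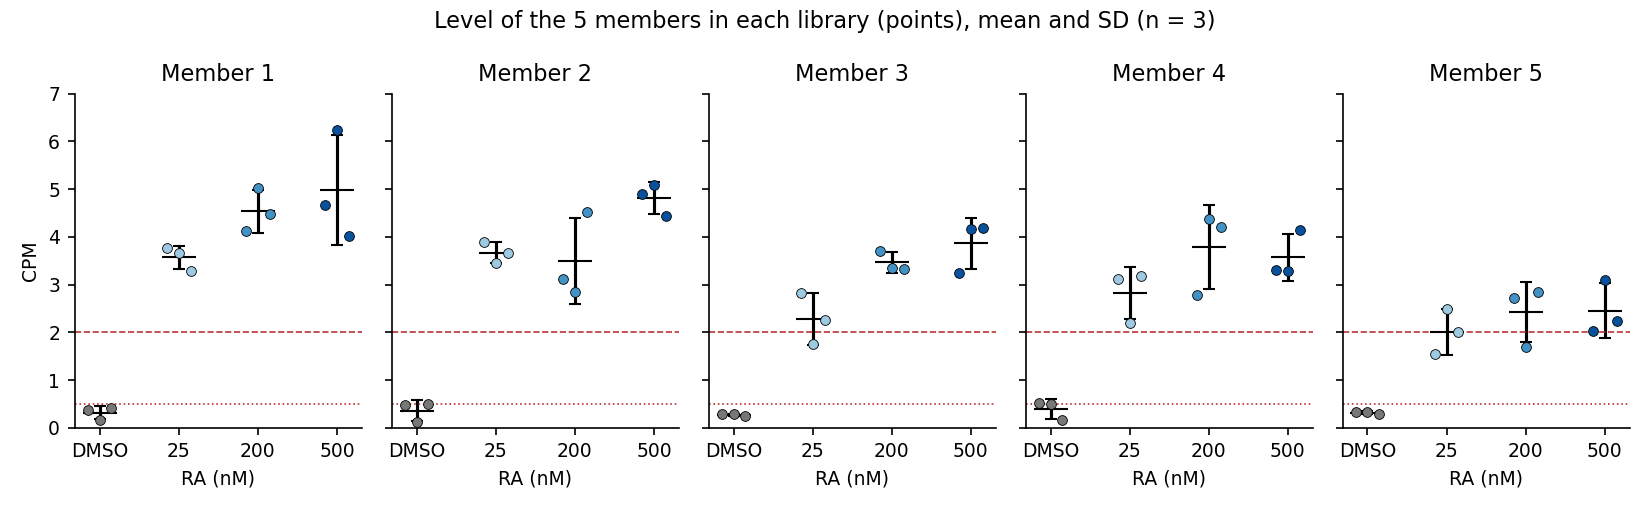
CPM of each member (panels) in DMSO and at 25, 200 and 500 nM RA. Points are libraries, bars are mean and SD of 3, and the dotted and dashed lines mark the rule's limits of 0.5 and 2 CPM; all DMSO points lie at or under 0.525 CPM and all RA points at or above 1.54 CPM.

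The ratio to vehicle, which the choice of the members fixes as high, is given as a description only, and nothing is read from a test of it. Between groups it was 11.2-fold, 14.2-fold and 15.6-fold for member 1 at 25, 200 and 500 nM RA, and 6.31-fold, 7.58-fold and 7.69-fold for member 5, the lowest of the 5. The low vehicle counts limit how well these ratios are known. At 500 nM the counting interval of the DMSO sum alone allows 9.81-fold to 24.2-fold for member 1 and 5.02-fold to 12.7-fold for member 5. The lowest RA library was above the highest DMSO library by at least 4.20-fold for each member at each dose. In the fit across all IDs, all 5 members were called higher than DMSO at each dose by edgeR's quasi-likelihood test at an adjusted p under 0.05, where 19.6%, 14.5% and 22.3% of the 24454 IDs tested were called higher at 25, 200 and 500 nM. As the rule used this contrast, nothing is read from that count. In such bulk RNA, more cells that express a gene and more RNA of it per cell cannot be told apart.

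Some IDs outside the rule lay close to its thresholds. The member nearest the vehicle ceiling was member 4, with a DMSO mean of 0.398 CPM. The ID just outside it had 0.508 CPM in DMSO and 6.71, 9.48 and 9.94 CPM at 25, 200 and 500 nM RA, which is higher under RA than any member. Just outside the RA floor, an ID with 0.294 CPM in DMSO had 1.97, 2.13 and 2.29 CPM at the 3 doses. With a ceiling of 1 CPM in DMSO the rule would take 26 IDs, and with a floor of 1 CPM under RA it would take 35. Requiring every library to pass, and not the group mean, left 2 IDs, members 1 and 2.

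Per unit of transcript length the members rank differently. The authors' TPM (a level scaled to transcript length and to a fixed total) at 500 nM RA averaged 5.76 ± 0.788 for member 3, 4.46 ± 0.925 for member 1, 3.58 ± 0.191 for member 2, 1.02 ± 0.154 for member 4 and 0.687 ± 0.146 for member 5 (SD, n = 3 each). Member 3 was thus the highest of the 5 by TPM and the third by CPM. The ratio of count to TPM, which follows transcript length within a library, placed member 3 at 0.409 times the median of 20081 IDs. Members 1 and 2 were at 0.680 and 0.822 times it, and members 4 and 5 at 2.14 and 2.19 times it. Among all IDs above 0 TPM, the members lay between percentiles 40.3 and 68.7 at 500 nM RA and between 16.8 and 33.4 in DMSO. The choice of the members largely fixes that contrast. With TPM in place of CPM the same limits took 20 IDs, of which 3 were members. The part of transcript length in this was not tested.

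Added together, the members made up a very small part of each library. Their sum was higher in every RA library than in every DMSO library, which the choice of the members largely fixes and which is given as a description. Their summed level was 2.0, 1.41 and 1.59 CPM in DMSO replicates 1 to 3, 15.1, 13.6 and 14.4 CPM at 25 nM RA, 16.4, 17.3 and 19.4 CPM at 200 nM, and 18.1, 21.9 and 19.0 CPM at 500 nM. Every library at 200 and 500 nM was above every library at 25 nM in this sum, and the ranges at 200 and 500 nM overlapped. The highest sums of their groups were in 200 nM replicate 3 and 500 nM replicate 2, the 2 libraries that lay apart on the first principal component. Their part in the sums was not tested beyond the fits without them given below.

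**Figure D2:**
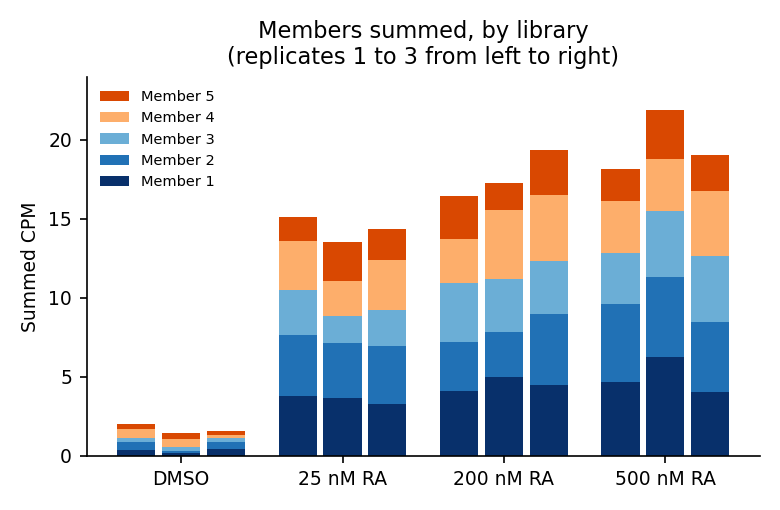
Summed CPM of the 5 members in each of the 12 libraries, stacked by member, with DMSO at the left and RA doses rising to the right. DMSO libraries hold 1.41 to 2.0 CPM and RA libraries 13.6 to 21.9 CPM, a difference that the choice of the members largely fixes.

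Whether the members' levels differed between the RA doses was asked by comparing the RA groups with each other. These are other contrasts than those with DMSO, but not fully apart from the choice of members, since the floor of 2 CPM used the same RA means and bounds how low a member can be at any dose. They were made in the edgeR fit to all 12 libraries, in which the DMSO libraries enter the filter, the scaling and the spread, with p-values adjusted over all 24454 IDs tested. All 5 members passed the filter on low counts. On the first principal component (41.1% of the variance) the 4 groups did not lie in order of dose. DMSO libraries were at -54.8 to -52.5, 25 nM at 46.6 to 49.2, 200 nM at -35.8 to -21.7 and 500 nM at 16.8 to 65.1. In contrasts between RA groups, dose and another difference between the groups of pools cannot be told apart. By the order of the group means, 3 members followed the dose (25, 200, 500 nM), member 2 had the order 200, 25, 500 nM and member 4 the order 25, 500, 200 nM. Among 17668 IDs with a mean of at least 2 CPM over the RA groups, these orders held for 9.73%, 19.7% and 11.4%. For member 5, one of the 3 that followed the dose, the order rests on 2.42 CPM at 200 nM against 2.45 CPM at 500 nM. In the fit its log2 fold change of 500 over 200 nM was -0.0084, the other direction. For member 1, another of them, that fold change was 0.14, and -0.020 without 500 nM replicate 2. The 3 members that followed the dose share all libraries, and the order of means was not tested.

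Between 500 and 25 nM RA, 2 of the 5 members rose and 0 fell, where 8.85% of the IDs tested were called higher and 8.13% lower. At an unadjusted p under 0.05, 3 were higher (14.8% of the IDs tested) and 0 lower, and DESeq2 called 1 higher and 0 lower. The largest rise was that of member 3, XBXL10_1g28965, which averaged 3.86 ± 0.537 CPM at 500 nM and 2.28 ± 0.539 CPM at 25 nM (SD, n = 3 each). Its log2 fold change was 0.78 (SE 0.213), a 1.71-fold difference with a 95% interval of 1.27-fold to 2.30-fold, and its edgeR adjusted p was 0.00354. It kept its call without each of the 12 libraries in turn, with edgeR adjusted p-values of 0.00282 to 0.0460, and by DESeq2 and limma.

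Member 1, XBXL10_1g39064, averaged 4.98 ± 1.15 CPM at 500 nM and 3.57 ± 0.25 CPM at 25 nM (SD, n = 3 each). Its log2 fold change was 0.51 (SE 0.182), with an edgeR adjusted p of 0.0306. The call was lost when single libraries were left out, mostly at a similar size of difference. Without 25 nM replicate 1, 2 or 3 the log2 fold change was 0.52, 0.52 and 0.48, and the edgeR adjusted p was 0.0705, 0.0669 and 0.0979. Without 500 nM replicate 1 it was 0.54 (edgeR adjusted p 0.0527). Without 500 nM replicate 2, the library that lay apart and held the highest value, the log2 fold change was 0.35 and the edgeR adjusted p 0.249. DESeq2 gave a log2 fold change of 0.51 and an adjusted p of 0.0538.

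The other members did not pass the test between 500 and 25 nM RA. Member 2 had a log2 fold change of 0.43 (95% interval 0.053 to 0.80, edgeR adjusted p 0.0998). With only the libraries of these 2 groups fitted it passed, with a log2 fold change of 0.43 and an edgeR adjusted p of 0.0439, so that 3 members were called. In the fit to all libraries, member 4 had 0.36 (-0.049 to 0.77, edgeR adjusted p 0.241). Without 25 nM replicate 2 it had 0.21, and without 500 nM replicate 3 it had 0.24. Member 5 had 0.30 (-0.18 to 0.79, edgeR adjusted p 0.441). Its log2 fold change was 0.12 without 25 nM replicate 1, 0.48 without 25 nM replicate 2 and 0.13 without 500 nM replicate 2, with edgeR adjusted p-values of 0.274 to 0.840. These intervals include differences of up to about the size seen for member 3, so they do not show that the levels were equal. All 3 values at 500 nM lay above all 3 at 25 nM in 4 of the 5 members, member 5 being the exception. Of these 4, members 1 and 3 were called. Among the IDs tested, 11.2% had this arrangement. The members share all libraries and were chosen by the same RA means, so no excess is read from this count.

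Between 200 and 25 nM RA, 1 member rose and 0 fell, where 10.2% of the IDs tested were called higher and 9.67% lower. At an unadjusted p under 0.05, 3 were higher (15.2% of the IDs tested) and 0 lower, and DESeq2 called 1 higher and 0 lower. Member 3, XBXL10_1g28965, averaged 3.46 ± 0.215 CPM at 200 nM and 2.28 ± 0.539 CPM at 25 nM (SD, n = 3 each). The log2 fold change was 0.63 (SE 0.215, edgeR adjusted p 0.0187). The call was lost without 25 nM replicate 2, its lowest RA library, with a log2 fold change of 0.48 and an edgeR adjusted p of 0.136. It was also lost without 200 nM replicate 1, which stood apart by pairwise counts. There the log2 fold change was 0.50 and the edgeR adjusted p 0.153. Member 4 had a log2 fold change of 0.42 (edgeR adjusted p 0.149), member 1 had 0.37 (0.135) and member 5 had 0.31 (0.413). With 1 library left out, member 5 went as low as 0.13 without 25 nM replicate 1 and as high as 0.53 without 200 nM replicate 2, and member 4 had 0.27 without 25 nM replicate 2, none of them called. Member 2 had -0.05 (edgeR adjusted p 0.896). The values did not overlap for members 1 and 3, with 200 nM higher, an arrangement held by 10.5% of the IDs tested. Here too the members share all libraries, so no excess is read from this count.

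Between 500 and 200 nM RA, 1 member rose and 0 fell, where 14.0% of the IDs tested were called higher and 15.1% lower. At an unadjusted p under 0.05, 1 was higher (18.0% of the IDs tested) and 0 lower, and DESeq2 called 0 in either direction. Member 2 averaged 4.81 ± 0.332 CPM at 500 nM and 3.49 ± 0.896 CPM at 200 nM (SD, n = 3 each). This was 0.48 on the log2 scale (SE 0.187, edgeR adjusted p 0.0405). The values overlapped, since 200 nM replicate 3 stood at 4.51 CPM and 500 nM replicate 3 at 4.44 CPM. The call was lost without 200 nM replicate 2, where the log2 fold change was 0.33 (edgeR adjusted p 0.258). It was also lost at a similar size of difference without 200 nM replicate 1, with a log2 fold change of 0.46 and an edgeR adjusted p of 0.104. Without 500 nM replicate 1, 2 or 3 the log2 fold changes were 0.45, 0.46 and 0.52 and the edgeR adjusted p-values 0.109, 0.0977 and 0.0587. DESeq2 gave 0.48 and an adjusted p of 0.0656. Without 200 nM replicate 3, the library that lay apart on the first principal component, the log2 fold change was 0.66 (edgeR adjusted p 0.0126). No member had all its 500 nM values above those at 200 nM, an arrangement held by 14.4% of the IDs tested. The other 4 members had log2 fold changes between -0.06 and 0.14, with edgeR adjusted p-values of 0.587 to 0.985. The widest of their 95% intervals was that of member 5, -0.48 to 0.46.

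Asked over the 3 RA groups at once, members 3 and 1 differed by edgeR's F-test (adjusted p 0.00375 and 0.0420), and member 2 did not pass (0.0522). That is 2 of 5 members, beside 35.2% of the IDs tested. Without 25 nM replicate 2 the F-test called 0 members. It called 1 member, XBXL10_1g28965, without 25 nM replicate 1 or 3, 200 nM replicate 1 or 2, or 500 nM replicate 1 or 2.

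**Figure D3:**
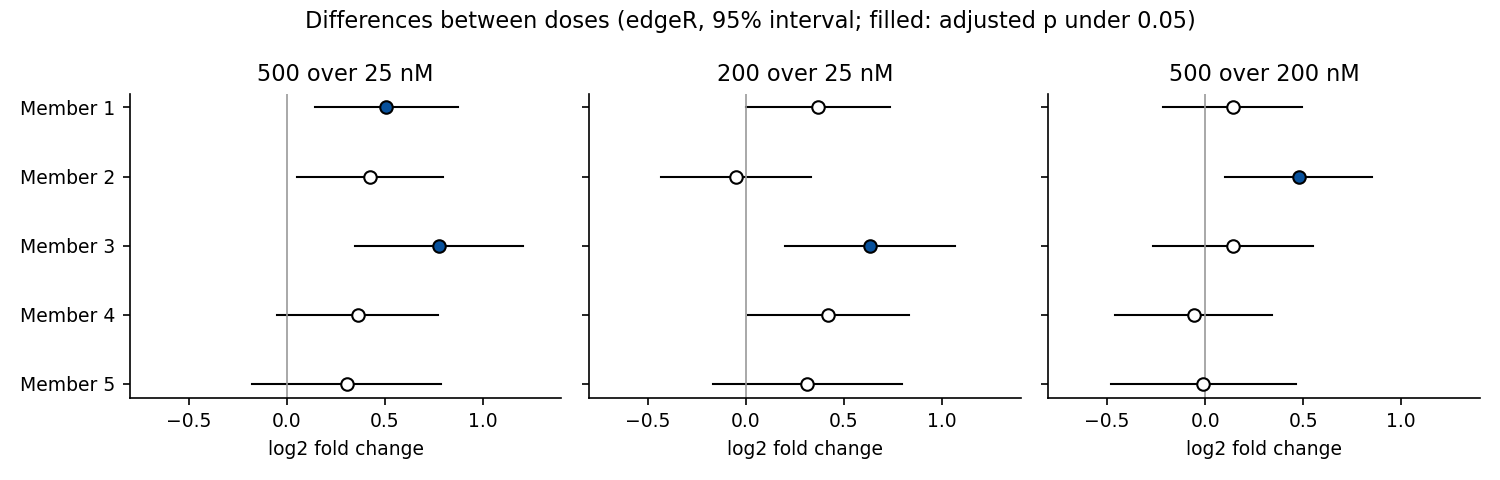
Log2 fold change of each member (rows) for 500 over 25 nM RA, 200 over 25 nM RA and 500 over 200 nM RA, with 95% intervals from the edgeR fit and filled points where the adjusted p was under 0.05. Members 1 and 3 are filled for 500 over 25 nM, member 3 for 200 over 25 nM and member 2 for 500 over 200 nM.

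The spread between pools lay above the counting error for some members and doses and under it for others. Member 5 had coefficients of variation of 23.8%, 26.0% and 23.2% at 25, 200 and 500 nM RA, against counting errors of 13.9%, 12.5% and 12.3%. Member 4 had 19.1%, 23.2% and 13.8%, against 11.6%, 10.1% and 10.1%. Both were thus over counting error at each dose.

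Member 1 varied by 7.01%, 9.98% and 23.0% at the 3 doses, against counting errors of 10.4%, 9.21% and 8.54%. Member 2 varied by 6.06%, 25.7% and 6.90%, against 10.2%, 10.5% and 8.61%. Member 3 varied by 23.7%, 6.21% and 13.9%, against 12.9%, 10.5% and 9.77%. For these 3 members the spread was thus under counting error at some doses. In DMSO it was 8.37% to 59.6% over the 5 members, against 35.4% to 42.0% from counting alone. With 3 pools a coefficient of variation is itself loosely known, and differences in spread were not tested.

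Members 3 and 4 each have an ID with a consecutive number that behaved alike. The files do not say whether consecutive numbers are neighbours in the genome, and this was looked at after the values were seen, for both consecutive numbers of every member. The ID numbered 1 below member 3 had 1.15, 0.619 and 1.02 CPM in DMSO replicates 1 to 3, 12.8, 12.2 and 11.5 CPM at 25 nM RA, 14.0, 16.2 and 15.8 CPM at 200 nM and 16.2, 16.1 and 15.6 CPM at 500 nM. Its CPM, which is not scaled to transcript length, was 3.72 to 6.95 times that of member 3 in the RA libraries. By TPM its means were 13.9, 17.4 and 18.0 at 25, 200 and 500 nM RA, against 3.45, 5.24 and 5.76 for member 3. The mean of 0.928 CPM in DMSO kept this ID outside the rule.

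The ID numbered 1 above member 4 averaged 0.554 ± 0.164 CPM in DMSO, 6.48 ± 0.524 CPM at 25 nM RA, 9.33 ± 0.965 CPM at 200 nM and 8.48 ± 0.653 CPM at 500 nM (SD, n = 3 each). Its highest mean was at 200 nM, as it was for member 4. The other 8 consecutive IDs were not of this kind: 7 stayed under 2 CPM in every group mean, and the ID below member 4 had 2.38 CPM in DMSO and 4.12, 5.34 and 4.42 CPM at the 3 doses. A consecutive ID under 1 CPM in DMSO and at 2 CPM or more in each RA group was found for 2 of the 5 members (40.0%). Of the 26 IDs within these limits it was found for 4 (15.4%), namely these 2 members and their 2 consecutive IDs. Over all numbered IDs it was 52 of 44453 (0.117%), a share set by how few IDs are within the limits. As all of this rests on 2 pairs that had been seen before, no excess is read from these shares. Whether reads shared between the IDs of such a pair contribute was not tested.

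**Figure D4:**
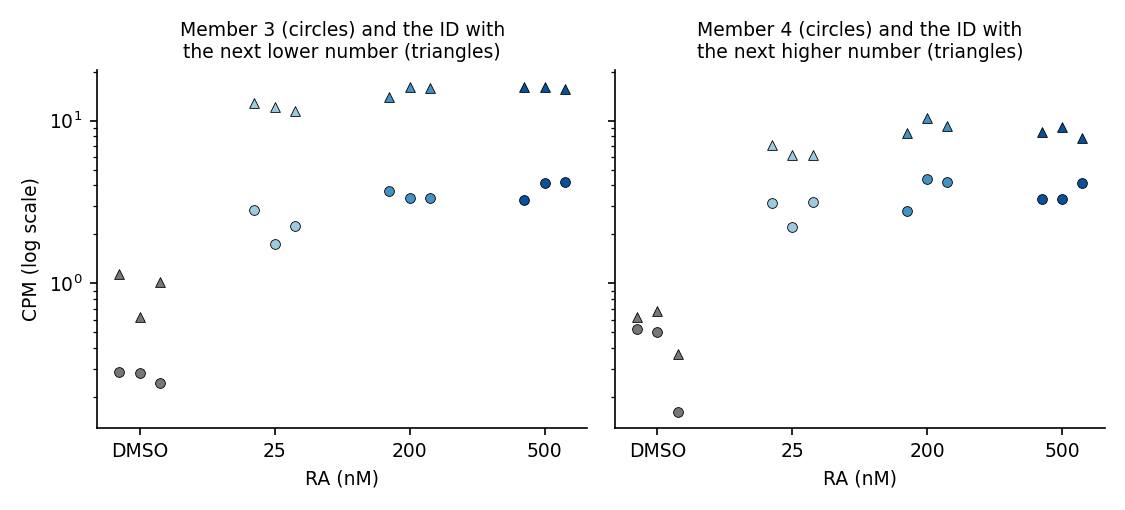
CPM on a log scale in DMSO and at 25, 200 and 500 nM RA for member 3 with the ID numbered 1 below it, and for member 4 with the ID numbered 1 above it. Points are libraries; in both panels the consecutive ID (triangles) lies above the member (circles) in every library and both are higher in all RA libraries than in all DMSO libraries.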

How the data were processed

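RNA-seq libraries were made from mRNA with a strand-keeping kit, per the labels' protocols. The authors deposited expected counts, written as whole numbers, and TPM for the same gene IDs. The submitters' processing notes name RSEM 1.3.0 and Bowtie2, and the genome build is not given in the sources used here. Ambiguous reads are split among genes by RSEM, so counts of similar copies on the L and S chromosomes are estimates. Of 44479 rows, 1 names no gene, has a count of 0 and was left out. CPM used column totals. In R 4.3.3, edgeR 4.0.16 fitted 4 groups to all 12 libraries (filterByExpr at 10 counts, 24454 IDs; TMM factors 0.891 to 1.06; robust quasi-likelihood; Benjamini-Hochberg over all IDs tested; threshold 0.05). Standard errors came from the fitted information and the quasi-likelihood dispersion, at least the counting error. Alternatives used DESeq2 1.42.0 and limma 3.58.1, the latter on log2(TPM + 1) or log2(TPM + 0.1) of the same IDs. The edgeR steps were tested on simulated counts, with planted changes larger than any member's between RA doses and no library set apart. That test does not bear on calls of the members' size. No replicate pair matched within sampling noise (reduced chi-square 2.90 to 88.3). Member selection and tests were chosen with earlier results of these data known. Named IDs were the members with the largest called rises and falls, at most 2 each, between 500 and 25 nM RA with no overlapping values; none fell. Gene and marker lists could not be used without names. A member had 2 to 12 counts per DMSO library and 40 to 192 per RA library, and precision depends on these counts and on the spread between pools.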

Additional observations from a re-analysis of the deposited data

How the results depend on the processing

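With the limits kept and other scaling the rule took 6 IDs (TMM or DESeq2 size factors), and leaving out 1 library it took 4 to 7. TPM gave 20, a DMSO ceiling of 0.25 or 1 CPM gave 0 or 26, an RA floor of 1 or 4 CPM gave 35 or 0, and passing in every library gave 2. Without 200 nM replicate 3 and 500 nM replicate 2, or 200 nM replicate 3 and 500 nM replicates 1 and 3 (both chosen after seeing the data), it took 5.

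Members called were 2 for 500 over 25 nM RA, 1 for 200 over 25 nM, 1 for 500 over 200 nM and 2 in the F-test. Leaving out 1 library gave 1 to 2, 0 to 1, 0 to 1 and 0 to 3. Requiring a 2-fold change gave 0 in each. Fitting only the RA libraries compared gave 3, 1, 1 and 3, and keeping all IDs or those with 1 CPM in at least 3 libraries gave 2, 1, 1 and 3, member 2 being the one added. DESeq2 size factors in edgeR gave 2, 1, 1 and 2. DESeq2, limma with either pseudocount and edgeR with total counts only gave 1, 1, 0 and 1 each. Without 200 nM replicate 3 and 500 nM replicate 2 they were 1, 1, 1 and 1, and without 200 nM replicate 3 and 500 nM replicates 1 and 3 they were 2, 1, 0 and 2, with 1 library left at 500 nM, whose spread is taken from the other groups. The causes were not tested. Adding the replicate block gave 2, 1, 1 and 2. Replicate numbers share only a number here: between groups, libraries of the same number deviated from their group means with correlations of -0.0535 to 0.107, 1 of 18 over 0.1, and 4 of 12 libraries were nearest to their own number.

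Over all IDs, limma on log2(TPM + 1) called 2209 for 500 over 25 nM and 2596 for 200 over 25 nM, against 4152 and 4868 by edgeR, and 5305 against 8614 in the F-test. For 500 over 25 nM, 52.1% of the edgeR calls were higher, against 42.1% with total counts only and 34.4% by that limma fit.

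Log2 fold changes that changed sign were all of members that had not passed the test. For 500 over 200 nM, member 5 (-0.01) had 0.0027 and 0.015 by limma with pseudocounts of 1 and 0.1, 0.40 without 200 nM replicate 3 and 500 nM replicates 1 and 3, and -0.23 to 0.16 with 1 library left out. Member 4 (-0.057) had 0.061, and member 1 (0.14) had -0.059, without 200 nM replicate 3 and 500 nM replicate 2. With 1 library left out, member 4 ranged over -0.18 to 0.025, member 1 over -0.020 to 0.26, and member 2 for 200 over 25 nM over -0.23 to 0.10. With 2 to 12 counts in a DMSO library the ratios to DMSO are known only within wide counting intervals. Taken from TPM, they were 11.6-fold, 14.7-fold and 15.9-fold for member 1 at 25, 200 and 500 nM RA. For member 5 they were 6.62-fold, 7.92-fold and 7.92-fold. No other alternative was run for them.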
